A study of Mus musculus with 28 samples.

Results

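*Vill*, *Serpinb1a*, *A1bg*, and *Cnmd* were followed in the livers of wild-type mice (WT) and of mice carrying a *Sirt6* transgene (SIRT6-tg). They are 4 of the 49585 features of the count table, and they were picked because their read counts differed strongly between SIRT6-tg and WT libraries of this series. The differences between genotypes are therefore descriptions of the values that chose the genes, and no test of them is given.

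The data were read counts per gene of 28 liver libraries from C57BL/6JOlaHsd mice aged 5 to 7 months, 7 from each sex in either genotype, and addressed how SIRT6 overexpression alters the liver in either sex. The transgenic mice came from a single line made on a hybrid background and then backcrossed, WT mice were littermates, and livers were taken after a short daytime fast. The transgene was not restricted to the liver, so SIRT6 made in other organs and SIRT6 made in the liver cannot be told apart here, and neither can SIRT6 and other properties of that line. Each library is named by its group and replicate number, and each came from an individual mouse.

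SIRT6 is an NAD-dependent deacylase that acts on histones and other proteins in the nucleus. The 4 genes encode proteins of unrelated kinds. *Vill* encodes villin-like protein, a relative of villin and gelsolin, which bind and sever actin filaments. *Serpinb1a* encodes a mouse counterpart of human SERPINB1, an intracellular inhibitor of the serine proteases of neutrophil granules. *A1bg* encodes alpha-1-B glycoprotein, a plasma protein of the immunoglobulin superfamily made by the liver, and in mice it is known as a gene of the female liver, whose sex bias depends on the pattern of growth hormone release. *Cnmd* encodes chondromodulin, a membrane glycoprotein with a BRICHOS domain, known from cartilage, whose shed part inhibits the growth of blood vessels.

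All 4 genes are protein coding and lie on different chromosomes of GRCm38. *Vill* (ENSMUSG00000038775.14) spans chr9:119052778-119071525 on the plus strand. The other genes lie on the minus strand, *Serpinb1a* (ENSMUSG00000044734.15) at chr13:32842092-32851185, *A1bg* (ENSMUSG00000022347.7) at chr15:60896859-60923012, and *Cnmd* (ENSMUSG00000022025.13) at chr14:79637690-79662170. An antisense gene of the Gencode vM21 annotation, 4930402D18Rik, shares 395 exon bases with *A1bg* on the opposite strand and is not a feature of the count table. Without strand, reads of the antisense gene and of *A1bg* cannot be told apart. *Vill*, *Serpinb1a*, and *Cnmd* overlap no other annotated gene. Of the 50-base windows of their transcripts, 0% in *Vill*, 2.81% in *Serpinb1a*, 11% in *A1bg*, and 0% in *Cnmd* also occur in transcripts of another gene, on either strand. The copies are *Serpinb1b*, *Serpinb1c*, and a pseudogene for *Serpinb1a*, and the antisense gene for *A1bg*.

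The upstream sequences of 3 of the 4 genes were available from RefSeq (GRCm38.p6) and are shown because the genes were chosen for moving with genotype. The *Vill* and *Cnmd* sequences end at the base before the RefSeq start, and all are read in the direction of transcription. They are chr9:119052528-119052777 on the plus strand for *Vill*, chr15:60921346-60921520 on the minus strand for *A1bg*, and chr14:79662184-79662433 on the minus strand for *Cnmd*. Capitals mark matches to the letters searched. The *A1bg* sequence lies upstream of the RefSeq start but inside the gene span given above, downstream of where that span begins. It stops before the part that the annotation assigns to an untranslated exon of another *A1bg* transcript, apart from the last 3 bases.
Vill: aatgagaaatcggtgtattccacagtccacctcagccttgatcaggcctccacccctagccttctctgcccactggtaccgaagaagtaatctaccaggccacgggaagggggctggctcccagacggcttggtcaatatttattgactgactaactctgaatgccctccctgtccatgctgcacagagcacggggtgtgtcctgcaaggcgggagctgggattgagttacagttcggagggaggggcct
A1bg: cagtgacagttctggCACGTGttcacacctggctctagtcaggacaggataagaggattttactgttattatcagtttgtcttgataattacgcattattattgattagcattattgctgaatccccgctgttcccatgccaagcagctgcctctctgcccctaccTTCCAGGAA
Cnmd: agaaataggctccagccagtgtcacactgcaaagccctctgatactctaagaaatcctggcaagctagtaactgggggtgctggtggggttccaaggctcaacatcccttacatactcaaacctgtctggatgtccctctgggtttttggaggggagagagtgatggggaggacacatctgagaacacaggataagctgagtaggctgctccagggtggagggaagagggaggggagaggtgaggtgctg

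The 250 bases before each start were searched on both strands for the letters TTCNNNGAA (the core bound by STAT factors), TGTTTAC (FOXA), TATAAA (the TATA box), GGGCGG (the GC box), CACGTG (an E-box), and the NF-kB and HNF1 motifs. The *A1bg* window held a STAT core at bases −84 to −76 before the start, spelled TTCCAGGAA, and an E-box at bases −235 to −230. No match was found in the *Vill* and *Cnmd* windows. Of 32851 mouse promoter windows of the same length, 7.02% held a STAT core and 6.02% held the E-box. The shares for the other letters were 3.17% for FOXA, 12.4% for the TATA box, 0.356% for NF-kB, 32.7% for the GC box, and 0.00913% for the HNF1 motif. A match describes the letters and is not a measured binding site.

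Total counts per library ranged from 18758863 to 35393069, and levels are given as CPM, the counts relative to the library total after scaling by the trimmed mean of M-values (TMM). *Sirt6*, counted together with the transgene, was at 2.73 ± 0.511 CPM (SD, n = 7) in male WT livers and at 281 ± 55.2 CPM (SD, n = 7) in male SIRT6-tg livers, and at 2.88 ± 1.55 CPM (SD, n = 7) and 30.2 ± 12.5 CPM (SD, n = 7) in the female groups. Every transgenic library lay above every WT library of its sex. In female WT replicate 3, several genes with sex-biased expression in the liver stood apart from the other female WT libraries, although *Xist* (771 CPM) and the Y-linked *Ddx3y* (0 CPM) were at female levels. The female *A1bg* and *Vill* differences, and their relations with a list of female-biased genes, are given with and without this library. The median log2 difference over all genes between male genotypes was 0.06 under TMM and −0.22 when scaled by library size alone, so small male differences depend on this choice, while each of the 4 genes kept its direction under either scaling. Hepatocyte genes dominated every library, with the 8 listed markers summing to between 101961 and 195047 CPM. Since these are whole livers, fewer cells of a type and less RNA per cell cannot be told apart.

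*Vill* was lower in SIRT6-tg livers of both sexes. In males, raw counts ranged from 48 to 120 (median 79) in WT libraries and from 26 to 40 (median 32) in SIRT6-tg libraries. As CPM, male WT livers lay between 1.41 and 3.54 (median 2.71) and male SIRT6-tg livers between 1.21 and 1.5 (median 1.32). The ranges overlapped through the lowest WT library, and 5 of 7 SIRT6-tg libraries lay below every WT library. Female WT livers lay between 2.92 and 5.74 CPM (median 4.17), from raw counts of 70 to 188, and female SIRT6-tg livers between 1.27 and 2.11 CPM (median 1.82), from raw counts of 27 to 66. The female ranges did not overlap. The fitted difference between SIRT6-tg and WT was −0.93 on the log2 scale in males (standard error 0.19) and −1.22 in females (standard error 0.18), or 1.91-fold and 2.32-fold lower. Without female WT replicate 3, the library with the highest *Vill*, the female difference was −1.11.

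The coefficient of variation of *Vill* was 32.4% in male WT livers and 8.34% in male SIRT6-tg livers, where counts were lowest, against 23.7% and 19% in female WT and SIRT6-tg livers. At the raw counts of 26 to 40 in male SIRT6-tg livers, counting error alone would give more spread than 8.34%. Whether spread differed between the groups was not tested. In the order of the mean levels, female WT (4 ± 0.95 CPM, SD, n = 7) stood above male WT (2.58 ± 0.836), female SIRT6-tg (1.72 ± 0.327), and male SIRT6-tg (1.34 ± 0.112). Each neighbouring pair in this order had overlapping ranges.

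*Serpinb1a* was higher in SIRT6-tg livers, by more in females than in males on the fitted scale. Female WT livers lay between 2.86 and 11 CPM (median 7.82, raw counts 70 to 270), and female SIRT6-tg livers between 11.2 and 32.5 CPM (median 24.4, raw counts 351 to 876). These ranges did not overlap, but the highest WT and the lowest SIRT6-tg library were 11 and 11.2 CPM. The female WT libraries themselves were spread widely, with replicates 1, 2, and 3 at 2.86, 4.22, and 3.54 CPM and the other 4 between 7.82 and 11 CPM. Male WT livers lay between 1.86 and 4.32 CPM (median 3.74, raw counts 57 to 144), and male SIRT6-tg livers between 3.15 and 7.85 CPM (median 5.2, raw counts 84 to 179). The male ranges overlapped, with 6 of 7 SIRT6-tg libraries above every WT library. The fitted difference was 1.67 in females (standard error 0.29), or 3.19-fold, and 0.73 in males (standard error 0.30), or 1.66-fold.

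Mean levels of *Serpinb1a* fell in the order female SIRT6-tg (22.5 ± 9.07 CPM, SD, n = 7), female WT (7.07 ± 3.46), male SIRT6-tg (5.57 ± 1.61), and male WT (3.35 ± 0.914). Only the first neighbouring pair was separate, and the ranges of the other neighbours overlapped. The female SIRT6-tg mean was 4.05 times the male SIRT6-tg mean, and all 7 female libraries lay above all 7 male libraries.

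*A1bg* was nearly silent in male livers and was by mean level the most abundant of the 4 genes per exon length in female livers, with its highest values in female SIRT6-tg mice. Male WT libraries held 0 to 4 reads (median 0, 7 reads in all), with 4 libraries at 0. Male SIRT6-tg libraries held 0 to 13 reads (median 2, 30 reads in all), with 1 library at 0, and 3 of 7 lay above every male WT library. A count of 0 allows up to 3 reads in a library, so levels this low can hardly be ranked, and the fitted male difference of 2.24 has a standard error of 1.75. Female WT livers lay between 2.02 and 114 CPM (median 30.1, raw counts 66 to 2737), and female SIRT6-tg livers between 103 and 1122 CPM (median 380, raw counts 2708 to 26953). The female ranges overlapped through 1 library on either side, since the highest WT library exceeded the lowest SIRT6-tg library, and 6 of 7 SIRT6-tg libraries lay above every WT library.

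The fitted difference of *A1bg* in females was 3.30 (standard error 0.58), or 9.84-fold higher in SIRT6-tg livers, and it was 3.08 without female WT replicate 3, which had the lowest level, 2.02 CPM, where the other female WT libraries had at least 20.7 CPM. *A1bg* varied more within groups than the other 3 genes, with a coefficient of variation of 81.8% in female WT and 76.9% in female SIRT6-tg livers. The 2 highest libraries were female SIRT6-tg replicates 3 and 4, at 1122 and 937 CPM. Group means were 501 ± 385 CPM (SD, n = 7) in female SIRT6-tg, 50.9 ± 41.6 in female WT, 0.174 ± 0.173 in male SIRT6-tg, and 0.0299 ± 0.0402 in male WT livers, and the step between the female and the male groups was free of overlap.

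*Cnmd* was higher in SIRT6-tg livers, by more in males than in females on the fitted scale. Male WT livers lay between 0.793 and 2.03 CPM (median 1.17, raw counts 25 to 61), and male SIRT6-tg livers between 3.45 and 9.07 CPM (median 6.22, raw counts 84 to 171). The male ranges did not overlap. Female WT livers lay between 1.28 and 3.39 CPM (median 1.84, raw counts 40 to 84), and female SIRT6-tg livers between 1.58 and 5.59 CPM (median 3.54, raw counts 38 to 116). The female ranges overlapped, with 4 of 7 SIRT6-tg libraries above every WT library. The fitted difference was 2.24 in males (standard error 0.27), or 4.73-fold, and 0.65 in females (standard error 0.26), or 1.57-fold. In the order of mean levels, male SIRT6-tg (5.8 ± 1.92 CPM, SD, n = 7) stood above female SIRT6-tg (3.32 ± 1.31), female WT (2.13 ± 0.759), and male WT (1.23 ± 0.418), and each neighbouring pair had overlapping ranges.

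**Figure D1:**
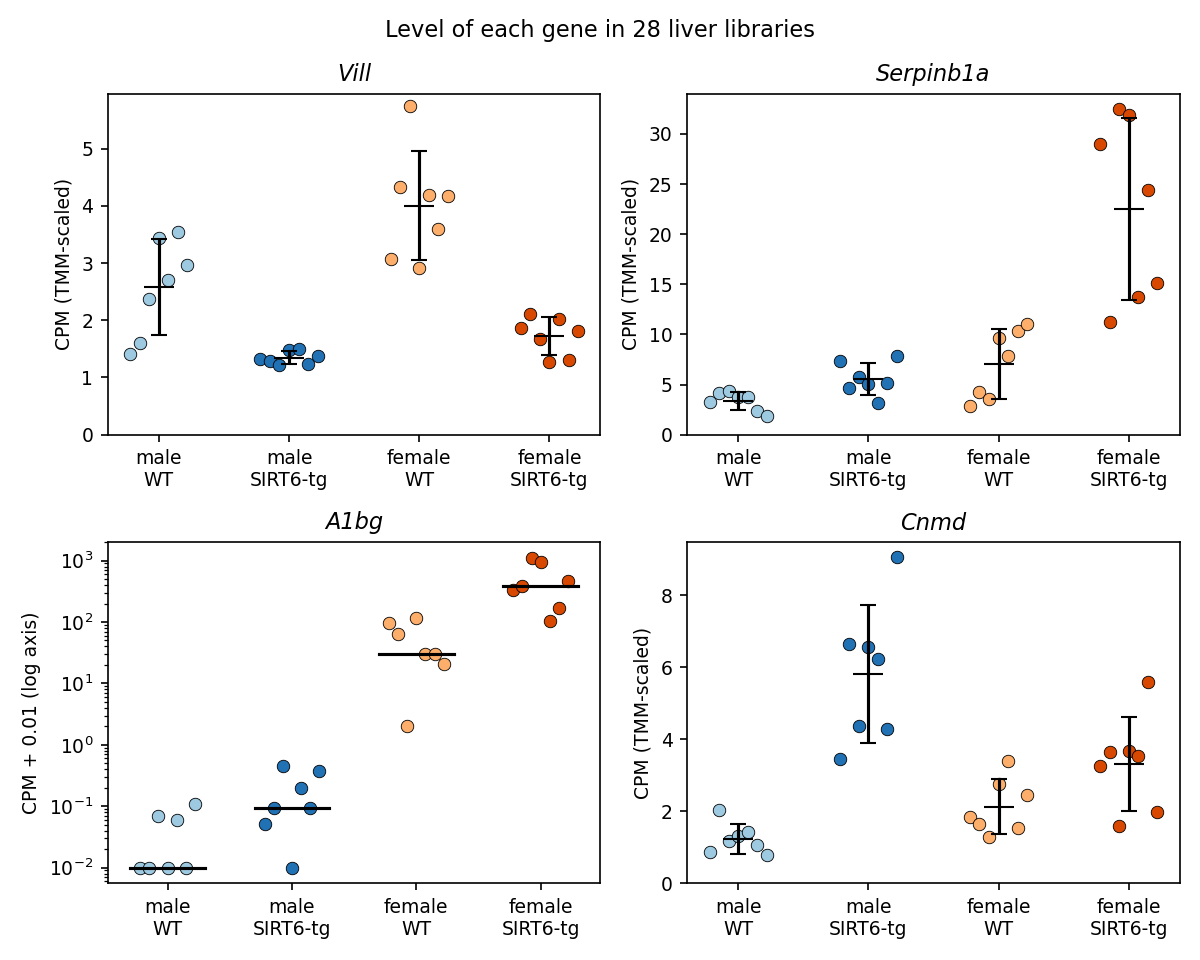
Level of each gene in CPM after TMM scaling, with 1 point for each of 28 liver libraries in 4 groups of 7. Bars give the mean and SD, except for A1bg, where the axis is logarithmic, 0.01 was added to each value, and the line is the median. Vill is lower and Cnmd higher in SIRT6-tg livers of both sexes, Serpinb1a reaches 32.5 CPM in female SIRT6-tg livers, and A1bg runs from 0 CPM in male livers to 1122 CPM in a female SIRT6-tg liver.

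Ranges of the 7 and 7 libraries were separate for 1 of the 4 genes in males (*Cnmd*) and for 2 in females (*Vill* and *Serpinb1a*). Among all 21583 genes tested, the ranges were separate in males for 2.60% in the higher and 4.37% in the lower direction, and in females for 0.0417% in either direction. An adjusted p-value under 0.05 in the same fit was found for 20.7% of all genes between male genotypes (9.68% higher with the transgene and 11.0% lower) and for 0.0278% between female genotypes (0.0232% higher and 0.00463% lower). The 4 genes were picked on these contrasts, so nothing is read from these counts. Ordered by fitted log2 difference among 21583 genes, *Cnmd* ranked 50 from the highest in males and 1181 in females, *Serpinb1a* 1212 in males and 125 in females, and *A1bg* 49 in males and 10 in females. The male *A1bg* rank says little, since it orders a difference with a standard error of 1.75 that rests on 7 WT and 30 SIRT6-tg reads. *Vill* ranked 2796 from the lowest in males and 490 in females. The male and female differences do not share libraries, and whether they differ for these genes was not tested. Mean *Sirt6* was 9.3 times higher in male than in female SIRT6-tg livers, so sex and transgene level cannot be told apart between them.

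**Figure D2:**
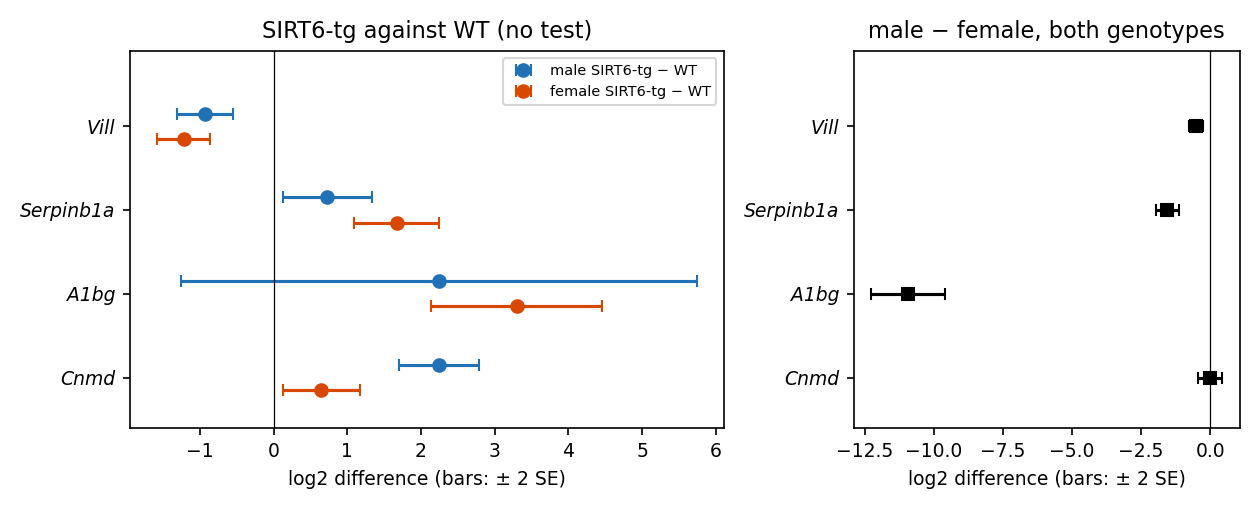
Fitted log2 difference of each gene between SIRT6-tg and WT livers in males and females (left, no test) and between male and female livers averaged over genotype (right), with bars of 2 standard errors to either side. Vill lies below 0 in both sexes and Serpinb1a and Cnmd above 0. The male A1bg bar spans 0, from −1.25 to 5.73, and the sex difference of A1bg, −10.93, is the farthest from 0.

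The difference between the sexes, averaged over genotype, is a separate contrast from those that chose the genes and was tested. Choosing genes by their response may still favour genes with many reads in 1 sex, so the sex results are not free of that choice. The average also includes SIRT6-tg livers, where mean *Sirt6* was 9.3 times higher in males, so sex and transgene level cannot be told apart there. In WT livers alone, the log2 difference was −0.64 (standard error 0.18) for *Vill* and −1.08 (standard error 0.30) for *Serpinb1a*. It was −10.40 (standard error 1.00) for *A1bg* and −0.79 (standard error 0.27) for *Cnmd*. These WT values helped choose the genes, so no test of them is given. In the averaged contrast, 3 of the genes were lower in males. *Vill* was at 1.96 ± 0.859 CPM (SD, n = 14) in male and 2.86 ± 1.37 CPM (SD, n = 14) in female livers, a log2 difference of −0.50 (standard error 0.13, edgeR adjusted p = 0.00486), and the ranges overlapped. *Serpinb1a* was at 4.46 ± 1.71 CPM in male and 14.8 ± 10.4 CPM in female livers, a log2 difference of −1.55 (standard error 0.21, edgeR adjusted p = 2.61e-06), with 10 of 14 female libraries above every male library. *A1bg* was at 0.102 ± 0.142 CPM in male and 276 ± 351 CPM in female livers, a log2 difference of −10.93 (standard error 0.67, edgeR adjusted p = 1.54e-12), and all 14 female libraries lay above all 14 male libraries. The mean raw count of *A1bg* was 2.64 in male and 7060 in female libraries. For *Cnmd* the log2 difference was 0.00 (standard error 0.22, edgeR adjusted p = 0.992), an estimate with 2 standard errors on either side reaching from −0.43 to 0.44. This average joins opposite differences, since the *Cnmd* mean was 1.73 times higher in females among WT livers and 1.75 times higher in males among SIRT6-tg livers. Adjusted p-values under 0.05 in this comparison were found for 25.6% of all genes, 13.3% higher and 12.3% lower in males, and ranges free of overlap with lower male values for 0.408%.

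Levels can be compared between the genes once divided by exon length, as RPKM, the CPM per kilobase. In male WT livers the mean RPKM was 1.45 for *Serpinb1a*, 0.667 for *Cnmd*, 0.585 for *Vill*, and 0.0125 for *A1bg*. In male SIRT6-tg livers *Cnmd* stood first at 3.15 RPKM, followed by *Serpinb1a* at 2.42, *Vill* at 0.305, and *A1bg* at 0.0723. In female livers *A1bg* led with 21.2 RPKM in WT and 209 RPKM in SIRT6-tg mice. *Serpinb1a* was next among female livers, with 3.07 RPKM in WT and 9.78 RPKM in SIRT6-tg mice, ahead of *Cnmd* with 1.15 and 1.8 RPKM and *Vill* with 0.908 and 0.39 RPKM.

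Whether the genes followed the amount of *Sirt6* was examined among the 7 libraries of each group, since variation inside a group did not choose the genes. None of 16 relations passed after adjustment over them (lowest adjusted p = 0.495 by exact permutation, two-sided). The closest by Pearson's r was *Vill* in male SIRT6-tg livers, with r of 0.80 (exact permutation p = 0.031), Spearman's rho of 0.64 (exact permutation p = 0.139), and r of 0.57 without the 2 libraries farthest from the median *Sirt6* level. Its sign was opposite to the difference between genotypes, and the spread of *Vill* in male SIRT6-tg livers was within counting error. By rho, the closest were *Cnmd* in male WT livers (0.75) and *A1bg* in male SIRT6-tg livers (−0.75), each with exact permutation p = 0.0663 (adjusted p = 0.53). For *Cnmd* in male WT livers r was 0.41, and 0.94 without 2 libraries. *Cnmd* gave r of 0.21 in male SIRT6-tg and 0.41 in female SIRT6-tg livers, and *Serpinb1a* gave −0.51 and −0.07 in the same groups. For *A1bg* r was −0.67 in male SIRT6-tg livers, where it rested on few reads and was 0.01 without 2 libraries, and −0.44 in female SIRT6-tg livers.

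**Figure D3:**
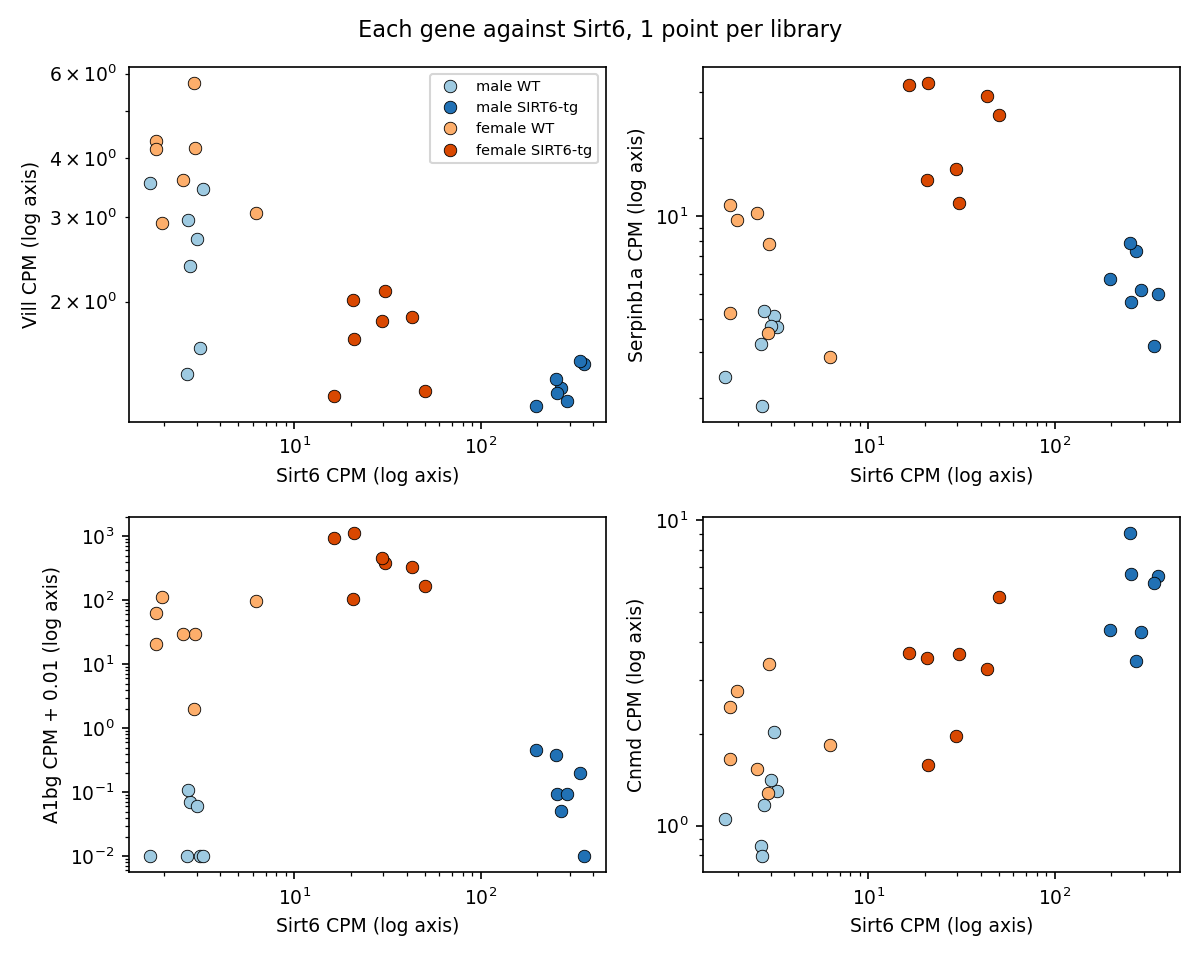
Level of each gene against Sirt6 on logarithmic axes in CPM, with 1 point for each of 28 libraries coloured by group (0.01 was added to A1bg). Along the Sirt6 axis the WT groups of both sexes overlap, near 2.73 and 2.88 CPM. Female SIRT6-tg livers, near 30.2 CPM, and male SIRT6-tg livers, near 281 CPM, form separate clouds. Within the groups no relation passed the test.

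Relations between the 4 genes inside the groups were weak as well. Over 28 libraries, with group means removed, none of 6 pairs passed after adjustment (lowest adjusted p = 0.19 by permutation within groups). *Vill* ran against *A1bg* with r of −0.36 (permutation p = 0.0423, rho −0.37, and r of −0.53 without 2 libraries) and against *Serpinb1a* with r of −0.36 (permutation p = 0.0634, rho −0.45, and r of −0.40 without 2 libraries). Within the groups, *Vill* and *A1bg* gave r of 0.25 in male WT, −0.29 in male SIRT6-tg, −0.88 in female WT, and −0.28 in female SIRT6-tg livers. Female WT replicate 3 held the highest *Vill* and the lowest *A1bg* of its group, and r in that group is not given without it. *Vill* and *Serpinb1a* had a negative r in all 4 groups, from −0.70 in female SIRT6-tg to −0.24 in female WT livers.

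Lists of genes with related functions were set beside each gene. Their counts are read against the shares over all genes, 9.68% higher and 11.0% lower in male SIRT6-tg livers and 0.0278% in either direction in females, where a list of this size is left without a call at the background share. For *Vill*, the other 7 members of the villin and gelsolin family were all measured. Of these, 3 fell in male SIRT6-tg livers and none rose, against 11.0% lower and 9.68% higher over all genes, with a median log2 difference of −0.33 against 0.06 over all genes. None passed in females (edgeR, 1 at an unadjusted p under 0.05, median −0.15), where 0.0278% of all genes passed. *Capg*, an actin filament capping protein of macrophages and other cells, fell from 15.3 to 3.16 CPM in males (log2 difference −2.28, edgeR adjusted p = 1.22e-07). Gelsolin (*Gsn*), which severs actin filaments, fell from 29.5 to 11.6 CPM (−1.34, edgeR adjusted p = 0.000356). *Scin* fell as well, but its male levels were 0.0675 and 0 CPM. Villin itself (*Vil1*) had mean levels of 0.151 to 0.175 CPM in the 4 groups, with a male log2 difference of 0.09 (standard error 0.48) and a female one of −0.01 (standard error 0.47).

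Of 14 actin genes of microvilli, 3 rose and 4 fell in male SIRT6-tg livers (median −0.38), against 9.68% higher and 11.0% lower over all genes, and none passed in females (edgeR, 1 at an unadjusted p under 0.05, median 0.01). Moesin (*Msn*), which links actin to the membrane, fell from 49.6 to 22.3 CPM in males (log2 difference −1.15, edgeR adjusted p = 1.21e-06), ezrin (*Ezr*) fell from 9.07 to 5.2 CPM (−0.80, edgeR adjusted p = 1.01e-05), and radixin (*Rdx*), of the same group of proteins, rose from 273 to 371 CPM (0.45, edgeR adjusted p = 0.000685). Bile duct cells carry microvilli, and none of 9 cholangiocyte markers passed in either sex (edgeR, 1 at an unadjusted p under 0.05 in each, medians of −0.31 in males and −0.30 in females). Their summed level was 42.6 to 95.9 CPM in male WT and 43.9 to 67 CPM in male SIRT6-tg livers, and 64.7 to 129 CPM and 61.1 to 113 CPM in the female groups, with no marker at 0 throughout a group.

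For *Serpinb1a*, 9 of 26 other clade B serpins, the intracellular serpins, had enough reads. In males 1 rose and 4 fell (median −0.70), against 9.68% higher and 11.0% lower over all genes, and in females none passed (edgeR, 0 at an unadjusted p under 0.05, median −0.06). The serpins that fell in male SIRT6-tg livers were *Serpinb6b*, from 4.54 to 2.16 CPM (log2 difference −1.08, edgeR adjusted p = 0.000208), *Serpinb9*, the granzyme B inhibitor, from 19.5 to 12 CPM (−0.70, edgeR adjusted p = 0.000259), *Serpinb10*, and *Serpinb8*. *Serpinb1c*, the nearest copy, rose in males from 0.0436 to 0.181 CPM (2.10, edgeR adjusted p = 0.0179). It shares 50-base windows with *Serpinb1a*, so part of its few reads may belong to either gene. *Serpinb1b* gave −1.05 in males (standard error 0.52) and −0.06 in females (standard error 0.57).

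Neutrophils hold proteases that *Serpinb1a* inhibits. Of 15 genes of neutrophils and their granules, 13 had enough reads. Only *Csf3r*, the receptor for granulocyte colony-stimulating factor, fell in males (4.88 to 2.12 CPM, log2 difference −1.21, edgeR adjusted p = 0.000433), where 11.0% of all genes were lower. None passed in females (edgeR, 2 at an unadjusted p under 0.05). The median log2 difference of this list was −0.75 in males and −0.49 in females, opposite in sign to *Serpinb1a* in both sexes. Several of these genes had mean levels of 0.243 CPM or less in every group, so the medians rest in part on few reads. Summed levels ranged from 9.23 to 30.1 CPM in female WT and from 6.74 to 15.8 CPM in female SIRT6-tg livers.

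For *A1bg*, the comparison was with 22 genes known for female-biased and 22 known for male-biased expression in mouse liver. Of the female-biased genes, 21 were lower in males in these libraries (median log2 difference −6.13, against −0.01 over all genes), and of the male-biased genes 20 were higher (median 4.25). Between genotypes in females, 1 female-biased gene rose and none fell, with a median of 0.43 against 0.00 over all genes, and none of the male-biased genes passed in edgeR (median 0.08). Of the female-biased genes, 9 had an unadjusted p under 0.05 in edgeR, all of them higher in SIRT6-tg livers. Of the male-biased genes, 8 had an unadjusted p under 0.05, in both directions. Among them were *Cyp4a12a* at −3.55 (edgeR adjusted p = 0.29, with its highest WT level in replicate 3) and *Elovl3*, a fatty acid elongase, at 1.57 (edgeR adjusted p = 0.284), and DESeq2 called both. Between genotypes in males, 1 female-biased gene rose and 2 fell (median −0.23), while 8 male-biased genes rose and none fell (median 0.43), against 9.68% higher and 11.0% lower over all genes. The gene that rose in females was *Cyp3a16*, a cytochrome P450, from 0.43 to 11.5 CPM (log2 difference 4.72, standard error 0.83, edgeR adjusted p = 0.0202). It has close copies in its family, among which reads may be split. Its rise was carried by female SIRT6-tg replicates 3 and 4, at 24.7 and 48.1 CPM where the other 5 lay between 0.457 and 3.1 CPM, and without either of them no listed gene passed, nor without female WT replicate 3, 5, 6, or 7. Female SIRT6-tg replicates 3 and 4 were also the libraries with the highest *A1bg*. The related *Cyp3a41a* was also highest in them, at 32.1 and 30.2 CPM.

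*Sult3a1*, a sulfotransferase, followed *A1bg* closely over the 28 libraries, with r of 0.97 in a set of libraries where both are near 0 in males. *Sult3a1* was at 78 CPM in female WT and 163 CPM in female SIRT6-tg livers (log2 difference 1.06, edgeR adjusted p = 0.733), which did not pass the test. In female WT replicate 3, *A1bg* at 2.02 CPM was accompanied by *Sult3a1* at 1.25 CPM, the lowest female value of each. The male-biased *Cyp4a12a* and *Mup20* were at 17.5 and 246 CPM there, where the other female WT libraries had at most 2.17 and 44 CPM. The mean log2 CPM of the female-biased list was 2.95 in this library and 4.53 to 5.21 in the other female WT libraries.

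Across the 14 female libraries, with genotype means removed, *A1bg* ran with the mean log2 CPM of the female-biased list, with r of 0.76 (permutation p = 0.0119, adjusted p = 0.0954 over 8 relations), rho of 0.52 (permutation p = 0.0781), and r of 0.67 without the 2 libraries farthest from the median. Without female WT replicate 3 it was 0.46, so the relation rests in part on that library, and it did not pass after adjustment. Within groups r was 0.85 in female WT and 0.60 in female SIRT6-tg livers. *Vill* ran the other way, with r of −0.63 (permutation p = 0.0245, adjusted p = 0.0978), rho of −0.34 (permutation p = 0.267), r of −0.41 without 2 libraries, and r of −0.38 without female WT replicate 3. For *Serpinb1a* and *Cnmd* r with this list was 0.45 (permutation p = 0.131) and 0.17 (permutation p = 0.566). These relations were chosen after the data had been seen.

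**Figure D4:**
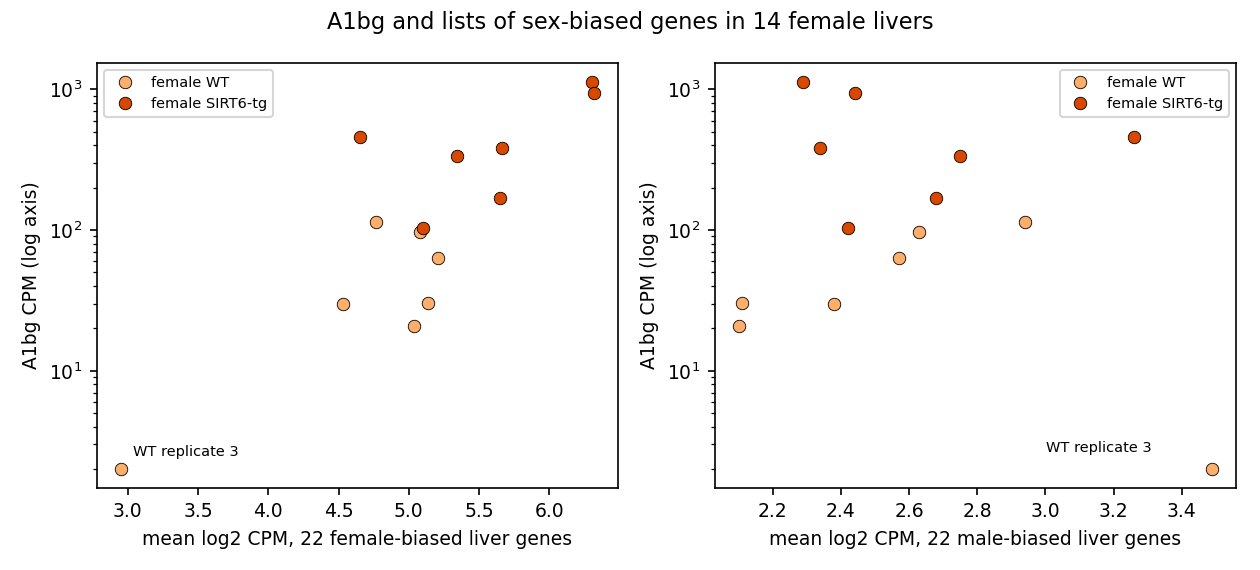
A1bg in CPM on a logarithmic axis against the mean log2 CPM of 22 female-biased (left) and 22 male-biased (right) liver genes in 14 female libraries. Female WT replicate 3 lies apart, with A1bg at 2.02 CPM, the lowest female-biased mean (2.95) and the highest male-biased mean (3.49).

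For *Cnmd*, 4 of 8 other genes with a BRICHOS domain had enough reads. *Itm2a* (1.3 to 0.646 CPM, log2 difference −1.03, edgeR adjusted p = 0.00156) and *Itm2c* (71.4 to 50.9 CPM, −0.49, edgeR adjusted p = 0.0166) fell in male SIRT6-tg livers, and none passed in females (edgeR, 1 at an unadjusted p under 0.05). Tenomodulin (*Tnmd*), the closest relative of chondromodulin, had 1 read in all 28 libraries. Of 11 measured inhibitors of angiogenesis, 1 rose and 3 fell in males (median −0.30), against 9.68% higher and 11.0% lower over all genes. None passed in females (edgeR, 1 at an unadjusted p under 0.05, median 0.00). The thrombospondins *Thbs1* (3.12 to 0.73 CPM, log2 difference −2.08, edgeR adjusted p = 2.47e-07) and *Thbs2* (4.28 to 1.62 CPM, −1.40, edgeR adjusted p = 2.8e-07) fell, and *Serpinf1*, which encodes pigment epithelium-derived factor, rose from 530 to 715 CPM (0.43, edgeR adjusted p = 0.000749). Of 16 cartilage genes, 9 had enough reads and only *Col11a2* fell in males, close to the 11.0% lower over all genes. The collagen and aggrecan genes that mark cartilage, *Col2a1* and *Acan*, had 2 reads each in all libraries.

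Markers of some other cell types moved with genotype in males, where 9.68% of all genes were higher and 11.0% lower. All 9 T cell markers fell in male SIRT6-tg livers (median log2 difference −2.38), with summed levels of 16.5 to 47.7 CPM in WT and 4.97 to 7.76 CPM in SIRT6-tg libraries, and all 8 macrophage markers fell (median −1.20), with 354 to 1183 CPM and 305 to 512 CPM. Of 8 stellate cell markers 5 fell (403 to 697 CPM and 384 to 513 CPM), and 3 of 8 hepatocyte markers rose while none fell. Of 8 endothelial markers 1 fell, close to the share over all genes (227 to 329 CPM and 227 to 298 CPM). Of 8 pancreatic acinar markers 2 fell and 1 rose, and 2 were at 0 in every male SIRT6-tg library. In females none of these markers passed in edgeR, as for nearly all genes. The medians lay in the male direction for T cell markers (−0.55, 3 of 9 at an unadjusted p under 0.05) and macrophage markers (−0.23, 1 of 8), with T cell sums of 5.52 to 17.4 CPM in WT and 6.08 to 14 CPM in SIRT6-tg libraries and macrophage sums of 394 to 817 CPM and 299 to 747 CPM. The part of these cell types in the differences of the 4 genes, in either sex, was not tested. Inside the groups, none of 32 relations between a gene and a marker list passed (lowest adjusted p = 0.347 by permutation within groups).

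Of the 40 nearest expressed neighbours, 5 on each side, 4 were higher and 6 lower in male SIRT6-tg livers and none passed between female genotypes in edgeR, counts close to the shares over all genes (20.7% in males and 0.0278% in females). *Plcd1*, a phospholipase C gene, lies tail to tail with *Vill* and ends 2 bases beyond it. It fell in males (log2 difference −1.28, edgeR adjusted p = 0.000179) and gave −0.04 in females (standard error 0.23), where *Vill* was at −1.22. On the other side, *Ctdspl*, 8.78 kb away, gave 0.01 in males and 0.07 in females. Beside *Serpinb1a*, *Wrnip1* at 19.5 kb rose slightly in males (0.44, edgeR adjusted p = 0.0106), and the 5 nearest expressed genes on the far side were all clade B serpins.

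*A1bg* lies in a sparse region, 43.1 kb from *Fam84b* and 1062 kb from *Myc*. *Fam84b* was lower in males than in females (log2 difference −2.47, edgeR adjusted p = 1.26e-14), the same direction as *A1bg*, and gave 0.57 between female genotypes (standard error 0.18, edgeR adjusted p = 0.44). *Cnmd* lies 2.49 kb from *Sugt1*, which gave 0.40 in males (standard error 0.18, edgeR adjusted p = 0.129), and 322 kb from *Olfm4*. Between the sexes, 6 of the 40 neighbours were higher and 8 lower in males, against 13.3% higher and 12.3% lower over all genes.

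**Figure D5:**
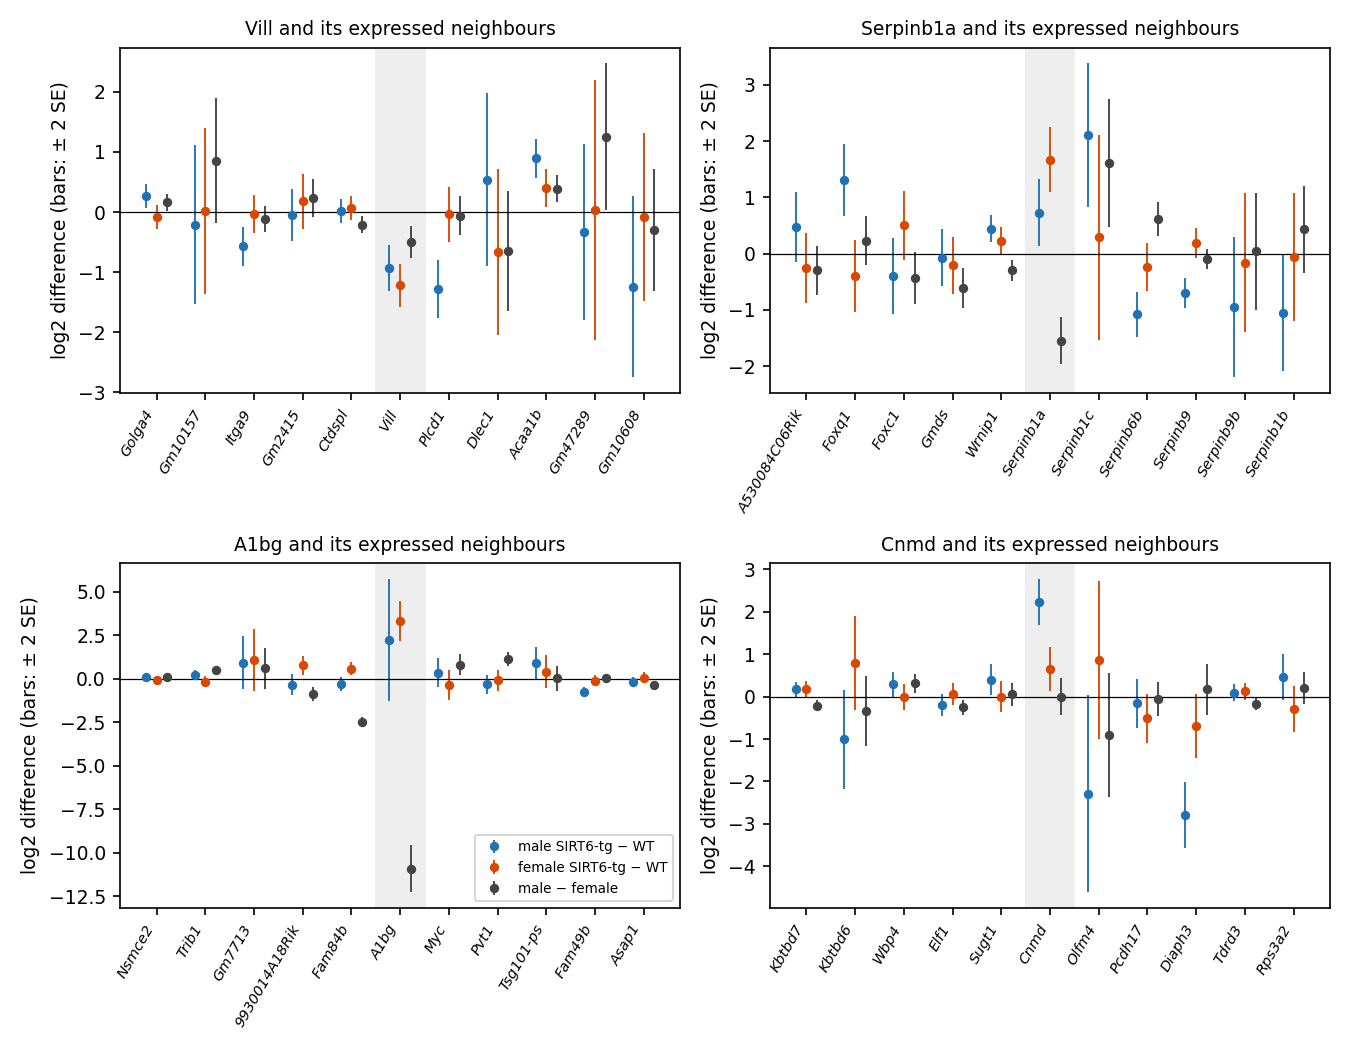
Fitted log2 differences, with bars of 2 standard errors to either side, of each of the 4 genes (shaded) and of the 5 nearest expressed genes on each side, in chromosome order. Blue and orange give SIRT6-tg against WT in males and females and grey gives males against females. Among the neighbours of A1bg, Fam84b lies farthest below 0 between the sexes, at −2.47.

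By likeness of log2 CPM over all 28 libraries among 14039 genes, *Vill* was closest to *Ttc39a* (r of 0.79), *Ddr1* (0.78), and *Adgb* (0.78), each also lower in SIRT6-tg livers of both sexes by mean CPM. *Serpinb1a* was closest to *Gm4952* (0.88), 1700080G11Rik (0.87), and *S1pr1* (0.87), *A1bg* to *Sult3a1* (0.97) and *Eci3* (0.97), and *Cnmd* to *Deptor*, *Sirt6*, and *Mccc2* (0.82 each). The libraries share groups, so these values largely repeat the group means. With group means removed, the closest genes were *Mmgt2* (0.69), *Kif11* (0.67), and *Mtmr11* (0.67) for *Vill*, *Rfx4* (0.77), *Hectd2os* (0.70), and *Zfp606* (0.67) for *Serpinb1a*, *Sult3a1* (0.66), *Kcnk10* (0.65), and *Tmem98* (0.64) for *A1bg*, and B230317F23Rik (0.67), *Cyp2c37* (0.63), and *Gm12689* (0.61) for *Cnmd*. *Sult3a1* was the only gene named for the same member by both measures.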

How the data were processed

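The authors aligned single-end reads of 28 liver libraries to mm10 with STAR 2.5.0a, used HTSeq-count with the Gencode vM12 annotation, and deposited raw counts per gene with no normalization. The strand setting of the counting is not given in the sources used here. The 4 genes and the gene lists were chosen with earlier results of these data known. Names and coordinates came from Gencode vM21 (GRCm38).

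Genes with a mean of at least 0.5 counts after DESeq2 scaling were kept, 21583 in all, the definition of expressed genes in the study. Counts were scaled by TMM and tested with edgeR 4.0.16 (quasi-likelihood, robust, R 4.3.3), all 4 groups in 1 fit without covariates, with Benjamini-Hochberg adjustment over all genes and a threshold of 0.05. log2 CPM for relations used a prior count of 2. Relations inside 1 group were tested over all 5040 orders (exact permutation, two-sided, smallest possible p 0.000397), and those over several groups by 100000 two-sided permutations within groups. The fit and the permutations were tested on simulated data.

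Total counts were 18758863 to 35393069 per library, and a count of 0 allows up to 3 reads at the 95% level, which covers counting error only. TMM factors were 1.06 to 1.17 in male WT, 0.821 to 0.993 in male SIRT6-tg, and 0.906 to 1.06 in female libraries. No pair of libraries within a group agreed within sampling noise (chi-square per gene at least 13.3).

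Named genes, besides the 4 and *Sirt6*, were near relatives, nearest expressed neighbours, at most 3 genes per list and comparison with the lowest adjusted p under 0.05, and the 3 genes most alike by each measure, of which 1 is not reported here. *Serpinb8*, *Serpinb10*, *Serpinf1*, *Cyp3a41a*, *Cyp4a12a*, *Mup20*, *Elovl3*, *Xist*, *Ddx3y*, *Col2a1*, and *Acan* were named after their values were seen. Alternatives were RLE and upper-quartile scaling, library size alone, filterByExpr, no filter, DESeq2 1.42.0, the replicate number as a block, each sex fitted separately, a prior count of 0.5, and each library left out in turn. The relations with sex-biased lists were added after the data were seen.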

Additional observations from a re-analysis of the deposited data

Results flagged for a closer look

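Extreme libraries were looked for in 48 groups of 7 values, covering the 4 genes, *Sirt6*, and 7 genes set beside *A1bg*. A library was singled out where its gap to the nearest other library, divided by the whole range, exceeded Dixon's critical value at the 95% level. About 5% of groups would be singled out by chance among genes fixed beforehand. *Cyp3a41a*, *Cyp4a12a*, and *Mup20* were named after their values were seen, so that share does not apply here. In all, 7 groups were singled out. None of the 16 groups of *Vill*, *Serpinb1a*, *A1bg*, and *Cnmd* was among them.

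In female WT replicate 3, *Cyp4a12a* was at 17.5 CPM (next library 2.17 CPM) and *Mup20* at 246 CPM (next library 44 CPM), and this library also held the lowest female *A1bg*. *Sirt6* was at 6.22 CPM in female WT replicate 1 (next library 2.94 CPM) and at 1.69 CPM in male WT replicate 6 (next library 2.65 CPM). *Fam84b* was at 44.8 CPM in female WT replicate 7 (next library 29.1 CPM). The remaining values rested on few reads, with *Cyp4a12a* at 1.16 CPM in female SIRT6-tg replicate 7 and *Cyp3a41a* at 0.0843 CPM in male WT replicate 6.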

How the results depend on the processing

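The sex differences of the 4 genes stayed on the same side of the threshold in 35 other settings, from −0.55 to −0.43 for *Vill* (highest adjusted p = 0.014, edgeR or DESeq2), −1.61 to −1.47 for *Serpinb1a*, −11.3 to −10.75 for *A1bg*, and −0.07 to 0.1 for *Cnmd* (lowest adjusted p = 0.737). With the replicate block they were −0.50, −1.51, −10.90, and 0.02. Same-numbered libraries did not deviate together (median correlations of −0.06 to 0.07 between groups). With few libraries, this cannot settle whether the numbers pair mice. The block left 59 listed genes past the threshold between male genotypes, against 63. The log2 differences between genotypes kept their sign in 36 settings, from −1.22 to −0.84 in males and −1.28 to −1.11 in females for *Vill*, 0.44 to 0.83 and 1.53 to 1.81 for *Serpinb1a*, 1.72 to 3.0 and 2.96 to 3.63 for *A1bg*, and 1.94 to 2.39 and 0.48 to 0.79 for *Cnmd*. Of the listed genes, 54 to 72 passed between male genotypes. Between female genotypes 1 passed in edgeR, with 30 at an unadjusted p under 0.05. This became 0 with the replicate block, 0 with each sex fitted separately, 3 with DESeq2 (*Cyp3a16*, *Cyp4a12a*, and *Elovl3*), and 0 to 2 with 1 library left out, and the cause was not tested. The counts of relations past the threshold stayed at 0 in every alternative run. Depth limits *A1bg* in males, where 14 libraries held a mean of 2.64 reads.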
